A study of Mus musculus with 6 samples.

Results

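The fibrillar collagens are the collagens that assemble into the banded fibrils giving connective tissue its strength. They were taken here as 9 genes by symbol (Col1a1, Col1a2, Col3a1, Col5a1, Col5a2, Col5a3, Col11a1, Col24a1 and Col27a1), out of 38896 genes in the table. For each, the estimated counts of all its transcripts were summed within a library, scaled by library size and compared between the groups with libraries paired by mouse. All 9 passed the filter on low counts and were tested.

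RNA came from colonic fibroblasts, the collagen-producing stromal cells of the gut wall, grown out of the distal colon of 6-week-old mice and passaged 2 times. The cultures then spent 24 h in conditioned medium of a control or an inflammatory kind, and the groups are labelled control and DSS, with 3 libraries each. The labels list control and DSS under genotype, give no strain, and do not spell out DSS or how the medium was made. Mice 1716, 1717 and 1718 each gave 1 control and 1 DSS library, so the replicate is the mouse, with 1 culture per mouse and condition.

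A fibrillar collagen is made as a procollagen whose 3 chains wind into a triple helix, which requires glycine as the first residue of each triplet. Type I, built from the Col1a1 and Col1a2 chains, is the main collagen of most connective tissue, and type III, built from Col3a1 alone, accompanies it in distensible organs such as the bowel. Types V and XI lie within the fibril and help to start it and to set its width. Types XXIV and XXVII are later-described members with a shorter and interrupted helix. Fibroblasts are the main source of types I, III and V in the gut.

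The helix is visible in the coding sequence as a glycine codon (GG and any base) opening each triplet of codons. The stretches below show the first 45 bases of the longest such run in members of each role. They are from the GENCODE transcripts of build GRCm38, 5′ to 3′ on the coding strand. Capitals mark only the glycine codons that open a triplet, and Col3a1 has others in lower case.
Col1a1: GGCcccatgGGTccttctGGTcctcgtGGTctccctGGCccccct
Col1a2: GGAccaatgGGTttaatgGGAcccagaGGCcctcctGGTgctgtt
Col3a1: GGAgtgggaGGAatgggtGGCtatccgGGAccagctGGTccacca
Col5a1: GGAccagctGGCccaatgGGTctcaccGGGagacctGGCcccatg
Col11a1: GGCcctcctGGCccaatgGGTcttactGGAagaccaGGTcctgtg
Col27a1: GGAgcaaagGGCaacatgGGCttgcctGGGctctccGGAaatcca
The Col1a1 stretch runs from base 94939451 of chromosome 11 in exon 6 to base 94939732 in exon 7, with the intron left out, and the Col5a1 stretch lies within exon 14 at chr2:27964080-27964124. The longest run held 337 to 344 triplets in the 7 members of types I, III, V and XI. It held 216 triplets in Col24a1 and 217 in Col27a1, whose second longest run held 93. In Col5a1, Col5a3 and Col11a1 the run began in exon 14.

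The 9 genes taken here were all lower in DSS. All 9 members fell when the mouse was fitted as a block, at an adjusted p under 0.05 by edgeR's quasi-likelihood test, and none rose. Among all 19869 genes tested, 12.7% fell and 12.3% rose by the same rule. The median log2 fold change was -1.01 over the members and 0.01 over all genes tested. Every member was lower in DSS in each of the 3 mice, a pattern found in 28.5% of the genes tested, and in 8 members every DSS library lay below every control library, as in 16.5% of the genes. Of the 70 genes with a control mean of at least 1000 CPM (counts scaled to a common library size by TMM), where 5 of the members lie, 35 (50.0%) fell. Without the block, 7 members fell, against 5.91% of all genes falling and 7.37% rising, and Col11a1 (adjusted p = 0.0952) and Col24a1 (adjusted p = 0.0553) did not pass. Without mouse 1718 the number of falling genes dropped from 2517 to 1422 and that of rising genes from 2447 to 1357.

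**Figure D1:**
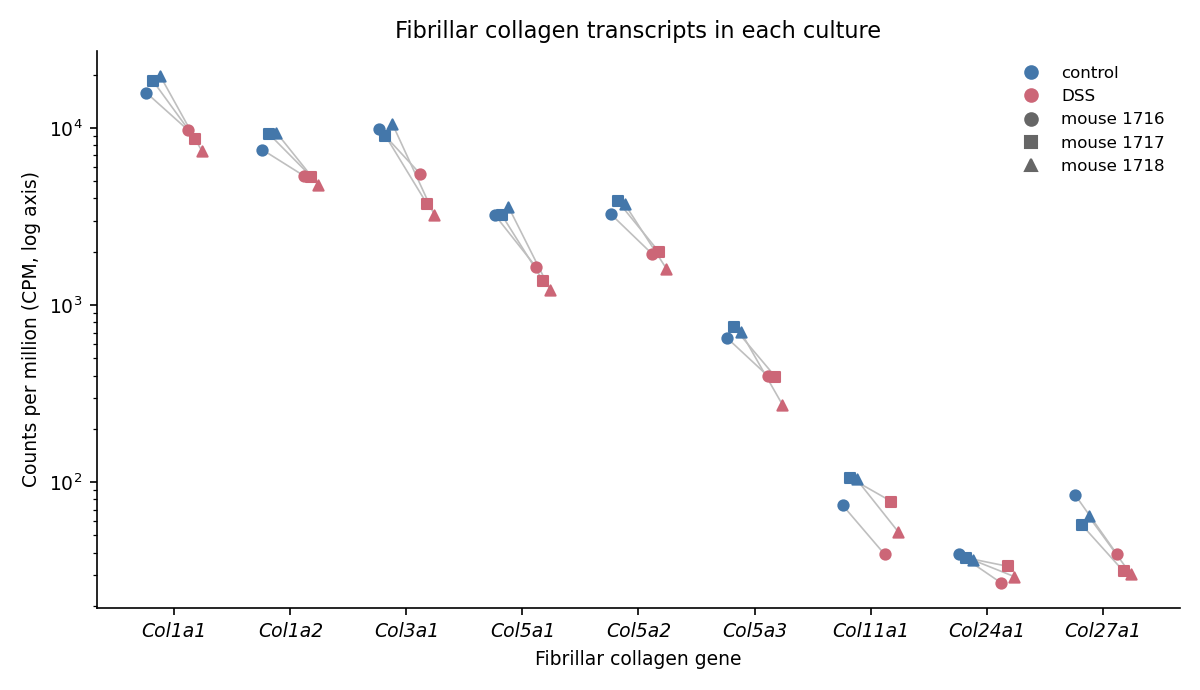
Expression of the 9 fibrillar collagens in each library, in CPM on a log axis, with the control and DSS library of a mouse joined by a line. Each line runs downward from control to DSS, and the control and DSS points overlap in range for Col11a1 alone.

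The members together took 4.12, 4.40 and 4.72% of the estimated counts in the control libraries of mice 1716, 1717 and 1718, and 2.50, 2.13 and 1.89% in their DSS libraries. No DSS library reached the lowest control share. The mean was 4.41% ± 0.30 (SD, n = 3) in control and 2.17% ± 0.31 in DSS, a mean paired difference of -2.24 percentage points ± 0.60. The exact paired permutation test gave p = 0.25, two-sided, the smallest that 3 mice allow. The exact unpaired test gave p = 0.1, also its smallest.

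The size of the fall differed between mice. The median log2 difference over the members, DSS minus control, was -0.75 in mouse 1716, -0.93 in mouse 1717 and -1.22 in mouse 1718. Over all genes tested the medians were 0.01, -0.00035 and -0.0041. These came from log2 CPM with a prior count of 2 (a small count added before the logarithm), which the members' differences did not use. Of the 9 members, 7 fell most in mouse 1718 and 6 fell least in mouse 1716. Col27a1 and Col24a1 were the exceptions to the first count, both with their largest difference in mouse 1716.

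Libraries held 17293680 to 19482938 estimated counts. The fibroblast identity of the cultures was checked against 10 marker genes, all of them detected, whose summed level was 4558 to 4736 CPM in control and 4609 to 5243 CPM in DSS. Of these, 5 fell (Vim, Pdgfrb, Fap, Thy1 and S100a4), 2 rose (Pdgfra and Dcn) and 3 did not pass. The log2 fold change was -0.79 for Vim, -0.52 for Pdgfrb, 0.71 for Pdgfra and 0.46 for Dcn. Without the block 2 fibroblast markers fell (Pdgfrb and Vim) and 1 rose (Pdgfra). Leukocyte markers were also present: the 8 listed genes summed to 1472 to 2176 CPM in control and 940.0 to 1443 CPM in DSS. Of the 6 tested, 3 fell (Csf1r, Lyz2 and Itgam) and Cd68 rose, and the lymphocyte genes Cd3e and Cd79a were near 0. Without the block 2 leukocyte markers fell and 1 rose, and Csf1r did not pass. The 5 pericyte markers summed to 255 to 422 CPM in control and 126 to 219 CPM in DSS. Of these, 3 fell (Cspg4, Notch3 and Rgs5), 0 rose and 2 did not pass, and Cspg4 alone went from 208 ± 88.8 to 76.5 ± 35.2 CPM. The 6 smooth muscle markers summed to 1522 to 1565 CPM in control and 1202 to 1369 CPM in DSS. Among them 2 fell (Actg2 and Des), 2 rose (Myh11 and Synpo2) and 2 did not pass. Without the block 1 pericyte marker fell, and 1 smooth muscle marker fell and 1 rose. The 5 glial markers summed to 131 to 426 CPM in control and 85.5 to 351 CPM in DSS. With the block 3 of them fell and 0 rose, and without it 0 fell and 0 rose. The 8 epithelial, 6 endothelial, 4 mesothelial and 6 cartilage or bone markers summed to at most 22.2 CPM in any library, with Epcam, Krt8 and Acan near 0. These are bulk cultures, in which fewer cells of a type and less RNA per cell cannot be told apart, and the part of the leukocyte, pericyte, smooth muscle and glial signal in the collagen results was not tested.

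Type I collagen was the most abundant. Col1a1, the gene of its major chain (gene ID 12842, GRCm38 chr11:94936224-94953042, plus strand, 51 exons), had 15812, 18327 and 19655 CPM in the control libraries of mice 1716, 1717 and 1718, and 9718, 8685 and 7374 CPM in DSS. Every DSS library lay below every control library, with mouse 1718 the highest in control and the lowest in DSS. The log2 fold change was -1.06 ± 0.13 (SE, 3 pairs; adjusted p = 0.00146), a DSS level of 47.8% of control.

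Col1a2, the partner chain (gene ID 12843, chr6:4505618-4541543, plus strand, 52 exons), had 7537, 9210.3 and 9432 CPM in control and 5359, 5322 and 4788 CPM in DSS. The groups did not overlap, and mouse 1716 was the lowest of the control libraries. It fell by 0.75 ± 0.10 on the log2 scale (adjusted p = 0.00206), to 59.3% of control.

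Col3a1, the only chain of type III (gene ID 12825, chr1:45311538-45349706, plus strand, 51 exons), had 9919.8, 9042 and 10541 CPM in control and 5505, 3709 and 3234 CPM in DSS. Again the groups were apart, and the DSS libraries differed among themselves more than the control libraries did. The log2 fold change was -1.28 ± 0.15 (adjusted p = 0.00111), which leaves 41.2% of the control level. In the single mice the DSS level was 55.5, 41.0 and 30.7% of control.

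Among the type V chains, Col5a1 (gene ID 12831, chr2:27886381-28039510, plus strand) had 3243, 3244 and 3585 CPM in control and 1633, 1366 and 1216 CPM in DSS. Its control libraries were close to each other and well above all DSS libraries. It changed by -1.27 ± 0.11 on the log2 scale (adjusted p = 0.00032), with DSS at 41.6% of control.

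Col5a2 (gene ID 12832, chr1:45374331-45503282, minus strand), which joins Col5a1 in the common type V molecule, had 3273, 3871 and 3739.6 CPM in control and 1939.5, 1986 and 1609 CPM in DSS. The groups did not overlap. Its log2 fold change was -0.98 ± 0.10 (adjusted p = 0.00052), with DSS at 50.8% of control.

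Col5a3 (gene ID 53867, chr9:20770050-20815117, minus strand), a further type V chain of more restricted expression, had 655, 750.1 and 709 CPM in control and 395, 394 and 274 CPM in DSS. No DSS library reached a control library, and the DSS library of mouse 1718 stood below the other two. It changed by -1.01 ± 0.12 on the log2 scale (adjusted p = 0.000987), with DSS at 49.7% of control.

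Col11a1 (gene ID 12814, chr3:114030479-114220756, plus strand), the type XI chain best known from cartilage, had 74.0, 106 and 104 CPM in control and 39.2, 77.8 and 52.3 CPM in DSS. The DSS library of mouse 1717 lay above the control library of mouse 1716, so the groups overlapped, although each mouse was lower in DSS. The log2 fold change was -0.78 ± 0.11 with the block (adjusted p = 0.00199). It was -0.74 ± 0.25 without it, where the call was lost, as given above.

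Col24a1 (gene ID 71355, chr3:145292472-145552013, plus strand) was the lowest member per length in the mean of each group, with 476 to 777 estimated counts per library. In the DSS libraries of mice 1717 and 1718 it lay above Col27a1 per length. It had 39.3, 37.4 and 36.3 CPM in control and 27.1, 33.5 and 29.3 CPM in DSS. The groups did not overlap, but the gap between the lowest control and the highest DSS library was small. The log2 fold change was -0.34 ± 0.08 (adjusted p = 0.0232), the smallest of the family, with DSS at 79.3% of control. The call was lost without mouse 1716 (adjusted p = 0.0547), without mouse 1718 (0.0826) and with DESeq2 (0.0737), where the log2 fold changes were -0.23, -0.36 and -0.34.

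Col27a1 (gene ID 373864, chr4:63214009-63334991, plus strand) had 85.2, 57.4 and 64.0 CPM in control and 39.4, 31.4 and 30.4 CPM in DSS. Mouse 1716 was highest in both groups, and the groups did not overlap. On the log2 scale the change was -1.02 ± 0.07 (adjusted p = 0.000124), with DSS at 49.3% of control.

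**Figure D2:**
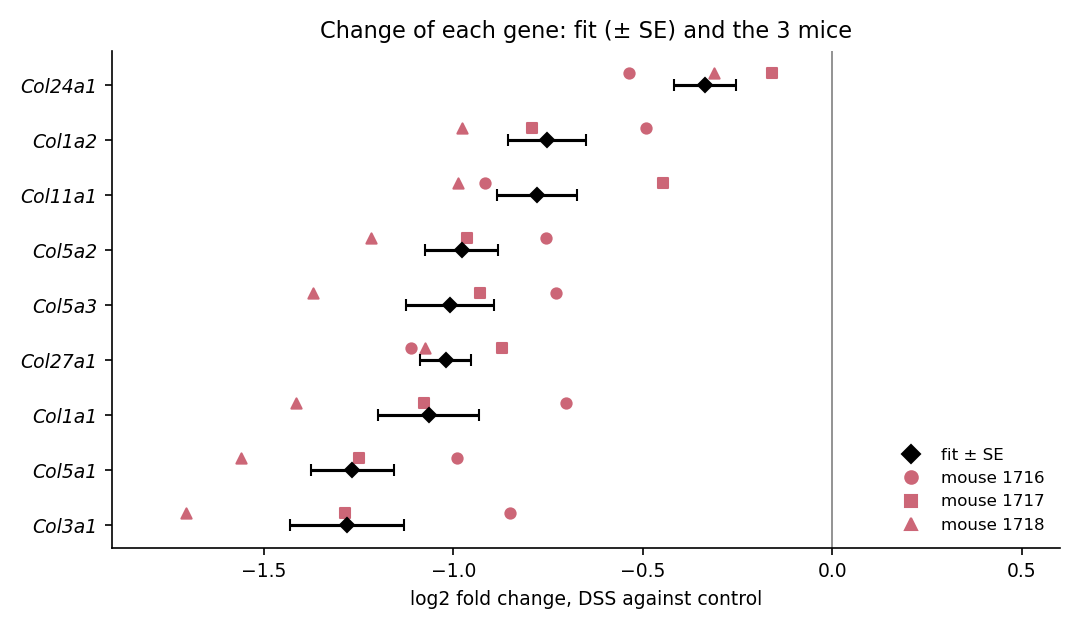
Log2 fold change of each member, DSS over control, with its SE, the mouse being a block in the model, and the difference in each of the 3 mice as points. All points lie below 0, from -1.70 for Col3a1 in mouse 1718 to -0.16 for Col24a1 in mouse 1717.

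**Figure D3:**
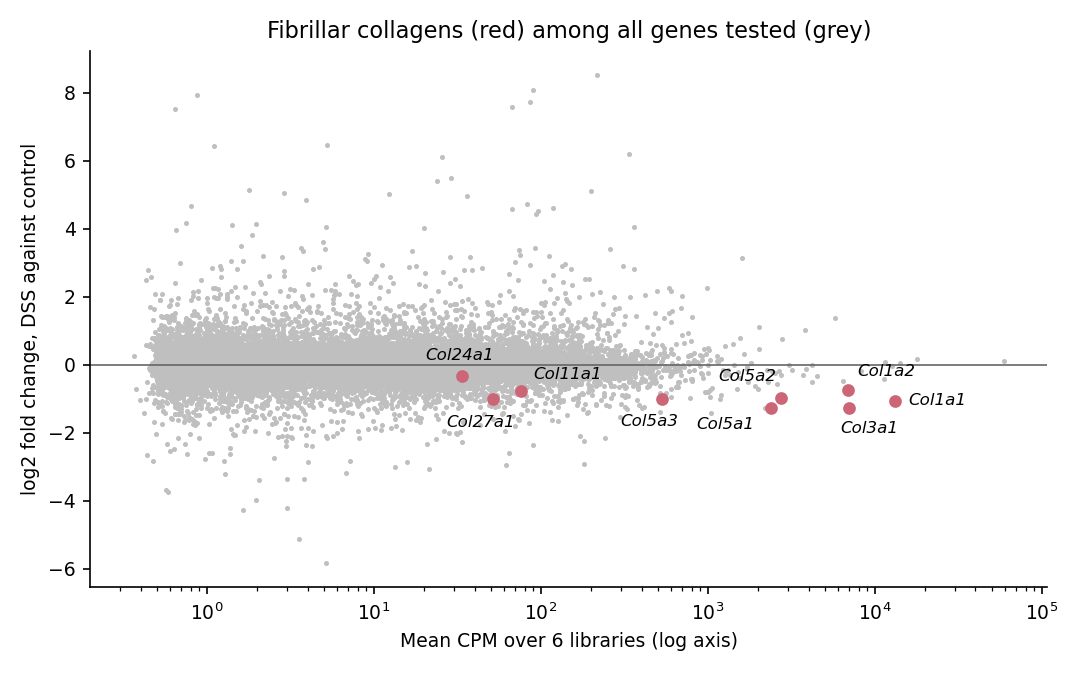
Log2 fold change of the 19869 tested genes against their mean level, with the 9 members marked. The members lie below 0 at both high and low levels, from Col3a1 at -1.28 to Col24a1 at -0.34.

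Levels can be compared between genes only per length. The length used was that of 1 curated transcript per gene. That transcript held 28.1 to 37.3% of the gene's counts in Col5a1, 17.1 to 40.8% in Col27a1 and 3.56 to 29.7% in Col24a1. The places of these genes in the order below rest on that length. Per kilobase of transcript, the control means were 3024 CPM per kb for Col1a1, 1767 for Col3a1, 1632 for Col1a2, 548 for Col5a2, 399 for Col5a1 and 115 for Col5a3. Col11a1 (12.3), Col27a1 (9.05) and Col24a1 (5.28) followed far below. In DSS the order was Col1a1 (1449 CPM per kb), Col1a2 (964), Col3a1 (746), Col5a2 (278), Col5a1 (167), Col5a3 (57.9), Col11a1 (7.36), Col27a1 (4.43) and Col24a1 (4.19). Col3a1 and Col1a2 thus changed places in the mean. Their library values overlapped in both groups when the libraries were pooled. Within a library, Col3a1 over Col1a2 per kilobase was 1.26, 0.94 and 1.07 in the control libraries of mice 1716, 1717 and 1718. It was 0.99, 0.67 and 0.65 in their DSS libraries. Col1a2 was thus the higher in control mouse 1717 and in every DSS library, though only slightly in DSS mouse 1716. Col11a1 and Col27a1 overlapped in both groups as well, and Col27a1 and Col24a1 overlapped in DSS.

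The chains of the family did not fall by the same factor. The count ratio of Col1a1 to Col1a2, whose protein chains combine as a pair of the former with 1 of the latter in the usual type I molecule, was 2.10, 1.99 and 2.08 in control and 1.81, 1.63 and 1.54 in DSS. All DSS ratios lay below all control ratios. The mean log2 difference was -0.31 ± 0.12 (SD, n = 3 mice; exact paired permutation p = 0.25, two-sided, the smallest possible). Per kilobase of transcript the same ratio went from 1.89, 1.79 and 1.88 to 1.64, 1.47 and 1.39.

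The ratio of type III to type I chains was lower in DSS in each mouse. Col3a1 over Col1a2 was 1.32, 0.98 and 1.12 in control and 1.03, 0.70 and 0.68 in DSS, a mean log2 difference of -0.53 ± 0.19, with overlap through the DSS library of mouse 1716. Col3a1 over Col1a1 moved by -0.22 ± 0.07, also with overlapping groups. Col5a1 over Col1a1 moved by -0.20 ± 0.08, from 0.205, 0.177 and 0.182 to 0.168, 0.157 and 0.165, with no overlap.

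Within type V, Col5a1 gave way to both partners. Col5a1 over Col5a2 moved by -0.29 ± 0.05 and Col5a3 over Col5a1 by 0.26 ± 0.06. Col5a2 over Col3a1 moved by 0.30 ± 0.20 and Col11a1 over Col5a1 by 0.48 ± 0.37, the widest spread of the 8 ratios, with 0.07 in mouse 1716 and 0.80 in mouse 1717. These 4 ratios overlapped between the groups. All 8 ratios moved the same way in 3 of 3 mice, and all 8 had an exact paired permutation p of 0.25 (0.25 after adjustment over the 8), so none could pass a threshold of 0.05. Unpaired, the exact permutation p-values were 0.1 to 0.3 (0.3 after adjustment). The ratios share genes, and Col3a1 over Col1a2 is the product of Col3a1 over Col1a1 and Col1a1 over Col1a2. Their agreement over the mice is therefore not 8 separate results, and how often other gene pairs agree was not counted.

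**Figure D4:**
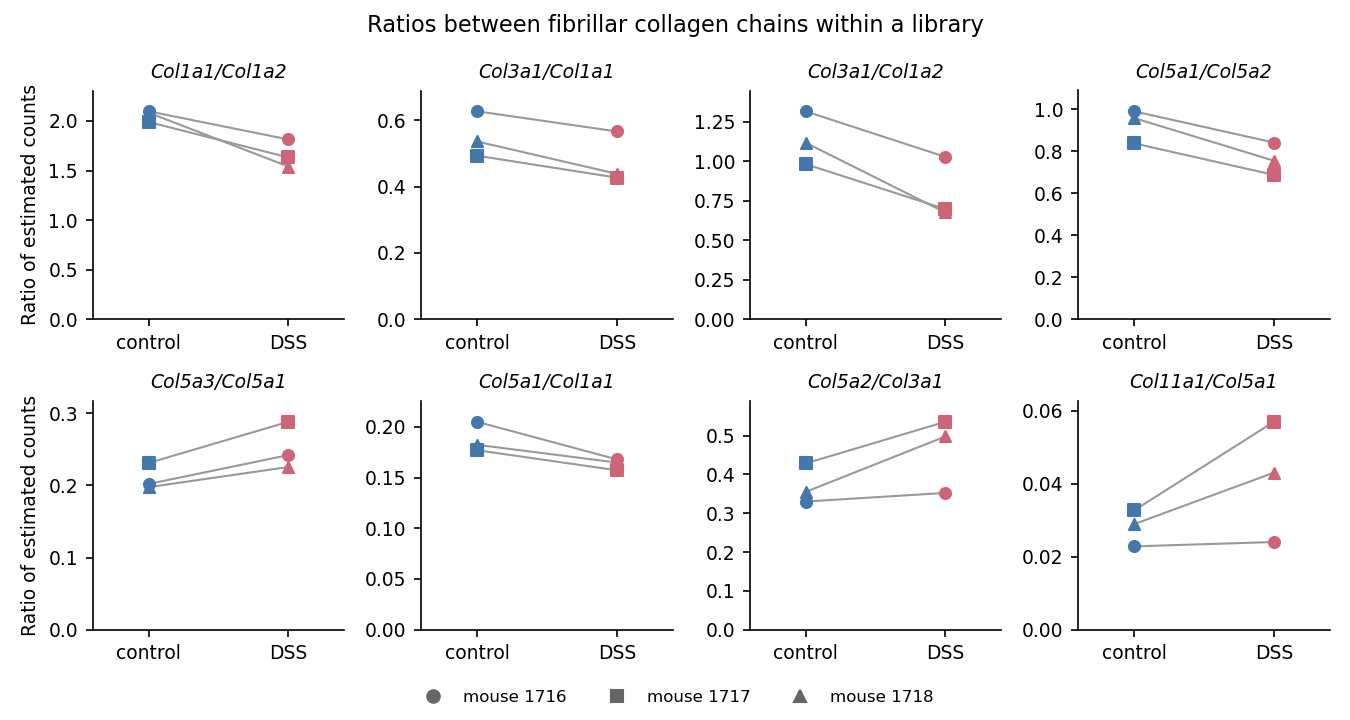
Ratio of estimated counts between members within a library, for the 8 ratios, with control and DSS of a mouse joined by a line and the axis starting at 0. The lines fall in 5 ratios and rise in Col5a3/Col5a1, Col5a2/Col3a1 and Col11a1/Col5a1, in all 3 mice in each case.

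The make-up of the family's counts moved accordingly by a few points. Type I chains held 57.5 to 61.7% of the members' counts in control and 61.1 to 65.4% in DSS. Type III held 20.3 to 24.4% and 17.2 to 22.3%, and type V 16.8 to 17.6% and 16.1 to 17.3%. Col11a1, Col24a1 and Col27a1 together held 0.43 to 0.49% in control and 0.43 to 0.66% in DSS.

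The table names 1 transcript each for Col1a1, Col1a2, Col3a1 and Col5a2, so their values do not depend on how reads were divided between isoforms. Col5a1 had 2 transcripts, of which a computationally predicted one held 62.7 to 71.9% of the gene's counts in a library. Col5a3 had 4, and its 2 curated transcripts held 94.8 to 97.4%. The curated transcript of Col11a1, 1 of 6, held 52.3 to 72.7%. The curated share was 16.0 to 33.3% in Col24a1, with 8 transcripts, and 17.1 to 40.8% in Col27a1, with 13. With curated transcripts alone, Col24a1 (adjusted p = 0.524) and Col27a1 (log2 fold change -1.31, adjusted p = 0.0857) no longer passed the test.

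Col3a1 and Col5a2 are neighbours on chromosome 1. Their 3′ ends face each other across 24624 bases (chr1:45349707-45374330) with 0 genes annotated between them. Both fell, by 1.28 and 0.98 on the log2 scale.

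The sequence before the start site is shown for the 3 members whose window ends at the annotated start of the gene. Whether it bears on the fall was not tested. The bases are the 120 before the start in RefSeq, build GRCm38.p6, on the gene's strand, with motif matches in capitals.
Col1a2: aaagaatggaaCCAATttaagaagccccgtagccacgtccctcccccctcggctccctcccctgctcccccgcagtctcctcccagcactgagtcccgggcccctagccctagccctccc
Col3a1: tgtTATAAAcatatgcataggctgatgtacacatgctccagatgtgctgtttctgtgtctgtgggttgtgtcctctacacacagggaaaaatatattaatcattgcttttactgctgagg
Col24a1: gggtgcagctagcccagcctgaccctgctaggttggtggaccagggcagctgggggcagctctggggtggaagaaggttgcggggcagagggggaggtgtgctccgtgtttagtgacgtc
They lie at chr6:4505498-4505617, chr1:45311418-45311537 and chr3:145292352-145292471. The 250 bases before the start that the RefSeq promoter table gives were searched on both strands in the 7 members with an entry. In Col5a1, Col5a3, Col11a1 and Col27a1 that start lies inside the annotated gene, so some of the bases searched, and all of them in Col27a1, lie within the gene and not upstream of it. The letters of the CCAAT box (CCAAT), the TATA box (letters TATAAA) and the GC box (letters GGGCGG) were looked for. Whether a match works as such a box was not tested. The reverse of the first can share letters with the last, but no matches shared a base in these members. The CCAAT box was in 3 of 7 members (Col1a2, Col5a3 and Col11a1) and in 33.8% of 32851 windows of the same length. The letters TATAAA were in Col3a1 alone among the 7, 117 bases before the start, and in 12.4% of windows. The GC box was in 5 members (Col1a2, Col5a1, Col5a3, Col11a1 and Col27a1) and in 32.7% of windows.

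Genes that make, export, cut, crosslink and sense collagen were taken in 8 lists of 121 genes, of which 112 were tested. Of these, 58 fell, 10 rose and 44 did not pass, with a median log2 fold change of -0.28. Without the block 38 fell and 6 rose, and without mouse 1718 the number falling was 38. Among all genes tested, 12.7% fell and 12.3% rose with the block, with a median log2 fold change of 0.01. Without the block 5.91% of all genes fell and 7.37% rose. The counts of each list below are to be read beside these shares.

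Of 15 enzymes that modify the chains, 10 fell, 0 rose and 5 did not pass. The number falling was 6 without mouse 1718 and 6 of 14 with curated transcripts alone. P4ha3, a subunit of the prolyl 4-hydroxylase that stabilises the helix, went from 36.5 ± 4.6 to 12.1 ± 0.8 CPM (SD, n = 3), a log2 fold change of -1.59 ± 0.10 (adjusted p = 0.000118). P4ha2, its related subunit, fell by 1.08 ± 0.08 on the log2 scale. Plod2, a lysyl hydroxylase that prepares telopeptides for crosslinking, fell by 1.19 ± 0.09.

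Of 14 genes of folding and secretion, 11 fell and Tmem38b, an ER cation channel, rose, while 2 rose without mouse 1716. Creb3l1, a membrane-bound transcription factor that drives collagen gene expression, went from 90.1 ± 21.7 to 41.0 ± 5.8 CPM, a log2 fold change of -1.12 ± 0.07 (adjusted p = 9.9e-05). Its relative Creb3l2 fell by 0.68 ± 0.06, and Fkbp10, a collagen chaperone, by 0.56 ± 0.06.

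Of 8 tested genes of propeptide removal, 4 fell and 0 rose. With curated transcripts alone 2 of 7 fell, and without the block 3 fell, or 1 to 3 when a library was left out of that fit as well. Pcolce, an enhancer of the C-proteinase, fell by 0.68 ± 0.07, and Bmp1, that proteinase, by 0.31 ± 0.06. Adamts3, an N-proteinase, fell by 0.78 ± 0.15, with an adjusted p of 0.0685 without the block.

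Crosslinking genes fell in 5 of 6 cases and 0 rose. The number falling was 3 without the block, without mouse 1717 and without mouse 1718. Loxl2, a lysyl oxidase family enzyme, went from 1864 ± 112 to 1138 ± 30.2 CPM, a fall of 0.71 ± 0.07 on the log2 scale. Lox fell by 0.57 ± 0.07 (adjusted p = 0.0622 without the block) and Loxl4 by 0.48 ± 0.06.

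Of 18 tested genes whose products sit on the fibril surface, 9 fell and 2 rose, against 5 and 1 without the block, and 5 fell without mouse 1718. Aspn, a small leucine-rich proteoglycan, had 41.6, 34.5 and 38.6 CPM in control and 4.16, 4.65 and 4.72 CPM in DSS, a log2 fold change of -3.08 ± 0.10 (adjusted p = 1.4e-05). Ogn, of the same class, fell from 50.0 ± 10.1 to 12.4 ± 0.6 CPM. Tnxb, a tenascin linked to fibril organisation, rose by 1.34 ± 0.14, from 11.2 ± 1.9 to 28.6 ± 4.9 CPM.

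Receptors were mixed, with 4 of 10 falling and 2 rising, against 2 and 1 without the block. Leaving out any 1 mouse left 1 rising. Itga2, a collagen-binding integrin subunit, rose by 0.92 ± 0.11, whereas Itga11, another, fell by 1.08 ± 0.14. Mrc2, an endocytic collagen receptor, fell by 0.56 ± 0.07.

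Of 11 tested genes of collagen breakdown, 5 fell and 2 rose, against 2 and 2 without the block, and 3 fell without mouse 1718. Mmp13, a collagenase, had 295, 182 and 145 CPM in control and 1018, 1095 and 753 CPM in DSS, a log2 fold change of 2.25 ± 0.14 (adjusted p = 0.00011). Timp3, an inhibitor of metalloproteinases, fell by 1.54 ± 0.07. Fap, a protease of activated fibroblasts, fell by 1.18 ± 0.15, with an adjusted p of 0.0934 without the block.

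Of 30 regulators of collagen transcription, 10 fell and 3 rose, against 5 and 1 without the block. Without mouse 1717 or mouse 1718, 1 rose. Tgfbr2 and Tgfbr1, the TGF-beta receptors, fell by 0.88 ± 0.06 and 0.58 ± 0.06, and Tgfb2, a ligand, by 1.16 ± 0.09. Among the other collagens, 12 of 25 tested genes fell and 2 rose, against 7 and 0 without the block. Without mouse 1717 1 rose, and without mouse 1718 7 fell and 1 rose. Col6a3, a chain of microfibrillar type VI, fell by 1.42 ± 0.13, from 1525 ± 326 to 561 ± 25.9 CPM, and Col6a1 and Col6a2 fell by 0.69 ± 0.06 and 0.87 ± 0.07.

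**Figure D5:**
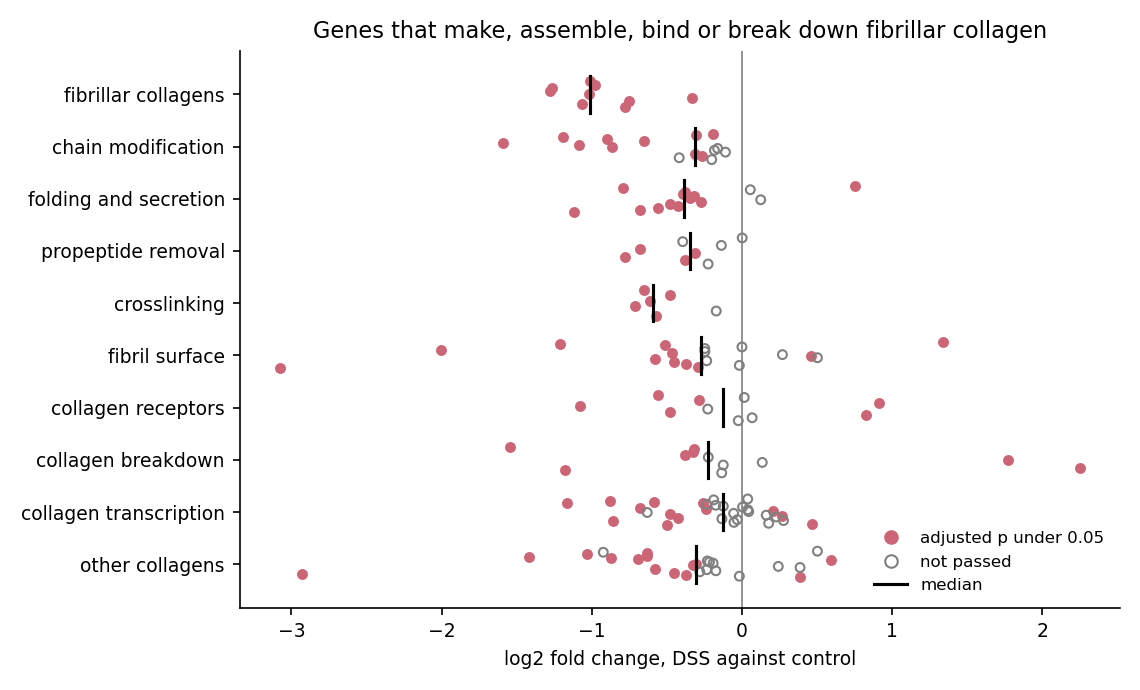
Log2 fold change of the tested genes of the 8 pathway lists and of the other collagens, one point per gene, with the members at the top. Filled points passed the test, open points did not, and the black line is the median of a list. Most points lie below 0, and Mmp13 at 2.25 and Aspn at -3.08 lie farthest out on either side.

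The genes most like the summed family across the 6 libraries were Plpp5, Ndrg1, Chsy3, Piezo2 and Plod1, out of 12559 genes whose mean reached 5 CPM. Likeness is the root mean square distance between log2 CPM profiles centred on their mean over the libraries. The distance was 0.0697 for Plpp5, 0.0902 for Ndrg1, 0.0904 for Chsy3, 0.0943 for Piezo2 and 0.0953 for Plod1. Plpp5, a lipid phosphatase, had 30.8, 36.7 and 40.6 CPM in control and 20.9, 19.1 and 15.7 CPM in DSS. Among the members the distance from the sum, of which each is a part, was 0.0292 for Col1a1, 0.0857 for Col5a2 and 0.105 for Col5a3. The other members lay farther, up to 0.405 for Col24a1. All members but Col1a1 and Col5a2 were thus farther from the sum than the 5 genes named.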

How the data were processed

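Total RNA of 6 fibroblast cultures from 3 mice went into strand-specific libraries after ribosomal RNA depletion, per the labels' protocols. The authors deposited estimated counts per RefSeq transcript, unscaled, made with kallisto on GRCm38 (mm10), per the submitters' processing notes; version and settings: not given in the sources used here.

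Estimated counts of 120299 transcripts were summed per gene symbol and rounded. edgeR 4.0.16 (R 4.3.3; filterByExpr, minimum count 10, minimum total 15; TMM) fitted the mouse as a block plus group, with a quasi-likelihood test and Benjamini-Hochberg adjustment over 19869 genes at 0.05. The SE is the log2 fold change over the square root of F. DESeq2 1.42.0 and limma 3.58.1 were alternatives. The code was tested on simulated data. Ratios and shares had exact permutation tests over mice. A prior count of 2 entered the log2 CPM of the likeness measure, the all-gene medians per mouse and the correlations between libraries. Other CPM values used none. Lengths and coding sequence are from GENCODE (GRCm38), and coordinates and promoters from RefSeq (GRCm38.p6), with 7 of 9 members matched for promoters.

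Libraries were paired because both came from the same animal. Deviations from the group means correlated at r = 0.21 to 0.46 across genes within a mouse and -0.36 to 0.02 between mice. Such deviations cancel out within a group, so positive values within mice force lower ones between mice. The contrast between the ranges is therefore partly arithmetic. Genes named are the members, the 3 smallest p of each list, the 5 most like genes, and members that neighbour each other; Tmem38b and the cell type markers named were chosen after their values were seen. Members and lists were chosen with earlier results of these data known.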

Additional observations from a re-analysis of the deposited data

How the results depend on the processing

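The members' calls were recomputed under 16 alternatives. Col1a1, Col1a2, Col3a1, Col5a1, Col5a2 and Col5a3 kept their call in all 16, Col27a1 in 15, Col11a1 in 10 and Col24a1 in 6. No member changed direction. Among the other genes named, Adamts3 and Fap each lost their call in 8 of the 16, and Bmp1, Lox and Dcn in 6. Mrc2, Tgfb2, Col6a1 and Col6a2 each lost theirs in 3, and Itga11 in 1. Leaving out a mouse with the block kept, 8 to 9 members fell, and 7 to 9 fell when the block was dropped together with a library. Without the replicate block, 1174 genes fell and 1465 rose, and 38 pathway genes fell and 6 rose. DESeq2 called 1569 falling and 1470 rising. With curated transcripts alone, where 14984 genes were tested, 983 fell and 1015 rose, and 33 pathway genes fell and 6 rose. Leaving out a mouse with the block kept gave 1422 to 2375 falling and 1357 to 2304 rising genes, and 38 to 61 falling and 7 to 12 rising pathway genes. Dropping the block together with a library went as low as 580 falling and 769 rising genes, and 21 falling and 4 rising pathway genes. The cause was not tested. The unpaired exact p was 0.1 for the summed share and for Col1a1/Col1a2, whose log2 difference stayed between -0.36 and -0.25 without a mouse, and the share's between -2.55 and -1.95 points. With 3 mice, exact tests cannot pass 0.05.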
